A study of Mus musculus with 24 samples.

Results

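The genes Nr1d1, Nr1d2 and Rora encode the nuclear receptors REV-ERBα, REV-ERBβ and RORα, and they are 3 of the 54733 genes in the liver expression tables. They were taken by gene name in all 24 libraries. The libraries were poly(A) RNA-seq of livers from male mice on a C57BL/6 background, kept in constant darkness and killed at circadian time (CT) 2, 6, 10, 14, 18 or 22 h. Wild-type (WT) mice were compared with ΔRRE mutants, in which CRISPR-Cas9 removed both REV-ERB/ROR response elements (RREs) of Arntl, the gene also called Bmal1, on both alleles in every tissue. Each of the 12 groups of genotype and time held 2 libraries. By the study's methods the mutants came from 1 of its 2 mutant lines unless stated otherwise. The methods give an age range for mice whose tissues were taken for RNA, but not the age behind each library. No label ties a library to a named animal, so the p-values measure the spread between these libraries.

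REV-ERBs and RORs bind the same DNA element. REV-ERBs lack the helix that recruits co-activators and repress from it through the NCoR-HDAC3 co-repressor complex, whereas RORs activate from it. In the mammalian clock the CLOCK-BMAL1 dimer activates Nr1d1 and Nr1d2 through E-boxes, and their products repress Arntl in turn, so that the RRE links a repressor made by the clock to 1 of its activators. In liver, REV-ERBs are also known as repressors of genes of lipid and glucose metabolism.

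The Arntl elements at which the receptors meet are shown because the mutation removes them. Both lie in a first exon of Arntl, in sequence annotated as UTR by GENCODE M21 (chromosome 7, plus strand, exon from 113207465 to 113207644). Of the 6 annotated transcripts, 1 has an exon that holds the first element and 2 have an exon that holds the second. The sequences below come from the RefSeq promoter table of GRCm38.p6 and are written in the direction of the gene. Capitals mark the stretch AGTAGGTNA that both elements share.
Arntl, chr7:113207495-113207519: ggtcggaaAGTAGGTTAgtggtgcg
Arntl, chr7:113207531-113207555: aggcagaaAGTAGGTCAgggacgga
The second of them also holds AGGTCA, the core motif of the receptor family, and matches the RRE consensus. Windows that ran from 250 bases before to 50 bases after a transcription start held AGTAGGTNA, on either strand, in 0.591% of 32851 cases, and the RRE consensus in 0.384%.

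The windows of the receptor genes were searched for the same motifs, for the E-box CACGTG, for the related E′-box CACGTT and for the D-box forms TTATGTAA and TTACGTAA, on both strands. All 3 genes had a window. That of Nr1d1 held 1 E′-box on the opposite strand at position -28 from the start, and 4.68% of all windows held this motif. That of Nr1d2 held AGGTCA at position -77, a motif found in 16.3% of all windows. The window of Rora held none of the motifs searched. It lay at the 5′ end of the gene, which has 6 annotated transcripts, and any start further inside was not searched. Capitals mark the match in each gene's own direction.
Nr1d1, chr11:98775391-98775414, minus strand: acagatctcAACGTGccggctgct
Nr1d2, chr14:18239169-18239192, minus strand: tggaagaagAGGTCAggaccgctc
A match of letters is a description of the window and not a bound site.

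In the files Nr1d1 is ENSMUSG00000020889 (GRCm38 chromosome 11, 98767932 to 98775333, minus strand), Nr1d2 is ENSMUSG00000021775 (chromosome 14, 18204054 to 18239127, minus strand) and Rora is ENSMUSG00000032238 (chromosome 9, 68653786 to 69388246, plus strand). Levels are FPKM (fragments scaled to transcript length and library size), which are per length, so that levels of different genes can be set side by side. The sum over all genes was 554170 to 624746 FPKM per library, and the number of reads behind the values is not recoverable from FPKM of this kind. All 5 hepatocyte markers were abundant (sums of 32496 to 49278 FPKM), and none of the 4 lymphocyte markers reached a mean of 1 FPKM. Kupffer cell markers summed to 12.1 to 61.9 FPKM in WT and 22.2 to 56.7 FPKM in ΔRRE livers, and their part in the values of Rora was not tested. In whole liver, fewer cells of a type and less RNA per cell cannot be told apart.

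The CT2 libraries stood apart for the REV-ERBs. Nr1d1 was 20.8 and 3.89 FPKM in the WT replicates 1 and 2, and 12.4 and 2.81 FPKM in the ΔRRE replicates. Nr1d2 was 8.40 and 3.27 FPKM in WT and 9.96 and 2.14 FPKM in ΔRRE livers at that time. Replicate 1 was thus the higher in both genotypes for both genes, by 5.37-fold and 4.42-fold for Nr1d1 and by 2.56-fold and 4.65-fold for Nr1d2. Over all genes these groups were not more variable than the others: 4.33% and 4.74% of the 11244 genes tested (mean level of 1 FPKM or more) differed by more than 2-fold between CT2 replicates, within the 4.02% to 7.34% of the 12 groups. The rhythms are given with and without these libraries.

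Nr1d1, the stronger oscillator of the REV-ERB pair, rose from night to day by more than 1 order of magnitude in both genotypes. WT libraries 1 and 2 held 66.8 and 32.8 FPKM at CT6, 42.5 and 20.1 at CT10, 12.1 and 7.21 at CT14, 0.457 and 0.990 at CT18, and 1.55 and 0.898 at CT22. The ΔRRE libraries held 48.2 and 33.3 FPKM at CT6, 50.4 and 26.9 at CT10, 5.86 and 6.64 at CT14, 0.691 and 1.27 at CT18, and 1.58 and 1.33 at CT22. CT6 and CT10 were thus high and CT18 and CT22 low in each genotype, with no overlap between these times. The CT6 mean was 49.8 ± 24.1 FPKM in WT and 40.8 ± 10.6 in ΔRRE livers (SD, n = 2), and the CT18 mean 0.724 ± 0.377 and 0.981 ± 0.411. CT6 and CT10 differed by less than their spread in both genotypes, as did CT2 and CT14.

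**Figure D1:**
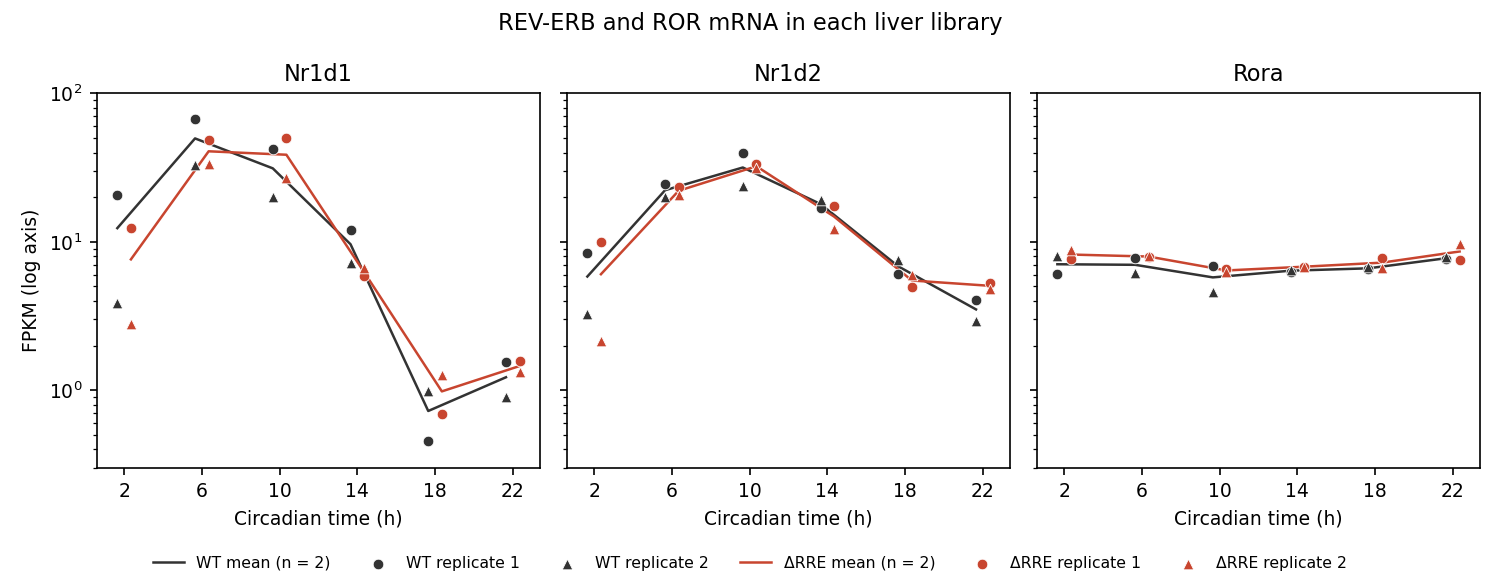
Level of Nr1d1, Nr1d2 and Rora in FPKM (log axis) against circadian time, with 1 point per library (circle, replicate 1; triangle, replicate 2) and lines through the means of 2 libraries, WT in black and ΔRRE in red. Nr1d1 runs from 0.457 to 66.8 FPKM in WT and Nr1d2 from 2.94 to 39.5 FPKM, whereas every Rora value lies between 4.59 and 9.68 FPKM, and the CT2 replicates of Nr1d1 and Nr1d2 lie far apart in both genotypes.

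Nr1d2, which acts alongside Nr1d1 and can in part replace it, peaked later and swung less. WT libraries 1 and 2 held 24.4 and 20.2 FPKM at CT6, 39.5 and 23.9 at CT10, 16.9 and 19.0 at CT14, 6.08 and 7.58 at CT18, and 4.06 and 2.94 at CT22. The ΔRRE libraries held 23.5 and 20.7 FPKM at CT6, 33.3 and 31.3 at CT10, 17.4 and 12.2 at CT14, 4.96 and 6.02 at CT18, and 5.32 and 4.79 at CT22. The highest mean fell at CT10 in both genotypes (31.7 ± 11.03 and 32.3 ± 1.39 FPKM) and the lowest at CT22 (3.503 ± 0.793 and 5.05 ± 0.374 FPKM). In WT livers CT10 and CT6 overlapped, as did CT18, CT2 and CT22 in turn. In ΔRRE livers CT2, CT18 and CT22 overlapped in turn, and the lowest library was at CT2 (2.14 FPKM). At CT18 and CT22 Nr1d2 was above Nr1d1 in every library. Nr1d1 made up 9.27% ± 3.22 of the summed REV-ERB FPKM at CT18 in WT and 14.8% ± 3.69 in ΔRRE livers, and 25.5% ± 2.95 and 22.3% ± 0.829 at CT22. At CT6 the share of Nr1d1 was 67.6% ± 8.06 and 64.5% ± 3.88.

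A 24-h cosine fitted to log2(FPKM + 0.1) in limma gave Nr1d1 an amplitude (mean to peak) of 3.02 ± 0.30 (SE) with a peak at CT7.72 ± 0.38 h in WT livers. Its adjusted p was 0.000385 (limma, Benjamini-Hochberg over 11244 genes). In ΔRRE livers the amplitude was 2.84 ± 0.22, the peak CT7.88 ± 0.30 h and the adjusted p 0.000186. These amplitudes ranked 4 and 7 among the 11244 genes tested, whose medians were 0.20 and 0.19. Nr1d2 reached 1.61 ± 0.15 with a peak at CT10.04 ± 0.36 h in WT (adjusted p 0.000324) and 1.49 ± 0.22 with a peak at CT9.73 ± 0.57 h in ΔRRE livers (adjusted p 0.00706), ranks 55 and 81. The Nr1d2 peak followed that of Nr1d1 by 2.32 ± 0.52 h in WT and 1.85 ± 0.64 h in ΔRRE livers. The SE of this lag treats the fits of both genes as independent, although they come from the same libraries.

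Thus Nr1d1 and Nr1d2, but not Rora, were called rhythmic at an adjusted p under 0.05 in both genotypes, beside 10.3% of all genes tested in WT, 4.57% in ΔRRE livers and 2.87% in both. Without the CT2 libraries the WT amplitudes were 3.01 and 1.55 and the ΔRRE amplitudes 2.85 and 1.38, and all 4 calls held. The ΔRRE call of Nr1d2 was lost when genes of low level were kept among the genes tested (adjusted p 0.0582, limma).

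Rora, the activator, was nearly flat. WT libraries 1 and 2 held 6.07 and 8.06 FPKM at CT2, 7.84 and 6.16 at CT6, 6.93 and 4.59 at CT10, 6.28 and 6.49 at CT14, 6.52 and 6.74 at CT18, and 7.66 and 7.85 at CT22. The ΔRRE libraries held 7.65 and 8.77 FPKM at CT2, 7.85 and 8.06 at CT6, 6.54 and 6.29 at CT10, 6.81 and 6.79 at CT14, 7.82 and 6.66 at CT18, and 7.54 and 9.68 at CT22. The highest mean fell at CT22 and the lowest at CT10 in both genotypes (7.75 ± 0.135 and 5.76 ± 1.65 FPKM in WT, 8.61 ± 1.51 and 6.41 ± 0.173 in ΔRRE livers). Most neighbours in the order of time points overlapped. The fitted amplitude was 0.17 ± 0.08 in WT (adjusted p 0.366) and 0.20 ± 0.06 in ΔRRE livers (adjusted p 0.173). Both were close to the medians of all genes, and neither passed the limma test. Without WT replicate 2 at CT10 the WT amplitude fell to 0.096. The coefficient of variation over the 12 libraries was 14.6% and 13.3% for Rora, against 118% in both genotypes for Nr1d1 and 76.6% and 75.6% for Nr1d2.

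Rorb, the family member known from retina and brain, was listed at 0 FPKM in all 24 libraries. Any other ROR gene was not analysed here, so the activator side below is Rora alone.

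The balance of repressor to activator mRNA was taken as the FPKM of Nr1d1 plus Nr1d2 over that of Rora, per library and with no test. In WT livers it was 11.6 and 8.60 at CT6 and 11.8 and 9.59 at CT10, then 4.61 and 4.04 at CT14, 1.004 and 1.27 at CT18, and 0.733 and 0.489 at CT22. In ΔRRE livers it was 9.14 and 6.69 at CT6 and 12.8 and 9.25 at CT10, then 3.42 and 2.77 at CT14, 0.722 and 1.09 at CT18, and 0.914 and 0.632 at CT22. At CT2 the replicates fell on either side of 1, with 4.82 and 0.888 in WT and 2.92 and 0.565 in ΔRRE livers. Repressor mRNA thus exceeded activator mRNA in every library from CT6 to CT14, and lay between 0.489 and 1.27 times it at CT18 and CT22. The mean ratio went from 10.7 ± 1.59 at CT10 to 0.611 ± 0.172 at CT22 in WT, a 17.5-fold range, and from 11.03 ± 2.52 to 0.773 ± 0.200 in ΔRRE livers, a 14.3-fold range. In WT the CT10 and CT6 ratios overlapped, and the highest mean fell at CT6 without CT6 replicate 2 (11.6) or CT10 replicate 1 (10.1). Without ΔRRE replicate 1 at CT2 the lowest ΔRRE value was 0.565, at CT2. The libraries of the genotypes overlapped at 5 of 6 time points and were lower in ΔRRE livers at CT14, where 28.4% of all genes tested did not overlap either.

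Each repressor was also set against Rora on its own. Nr1d1 over Rora alone ran from 6.92 ± 2.26 at CT6 to 0.109 ± 0.0543 at CT18 in WT, and from 5.99 ± 2.44 at CT10 to 0.140 ± 0.0725 at CT18 in ΔRRE livers. Nr1d2 over Rora ran from 5.46 ± 0.353 at CT10 to 0.453 ± 0.110 at CT22 in WT, and from 5.04 ± 0.0810 to 0.600 ± 0.149 at the same times in ΔRRE livers. For Nr1d1 the CT6 and CT10 libraries overlapped in both genotypes, as did those of CT18 and CT22. For Nr1d2 the lowest ΔRRE library was at CT2 (0.244). These values are of mRNA, and the receptor proteins were not measured in these files.

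**Figure D2:**
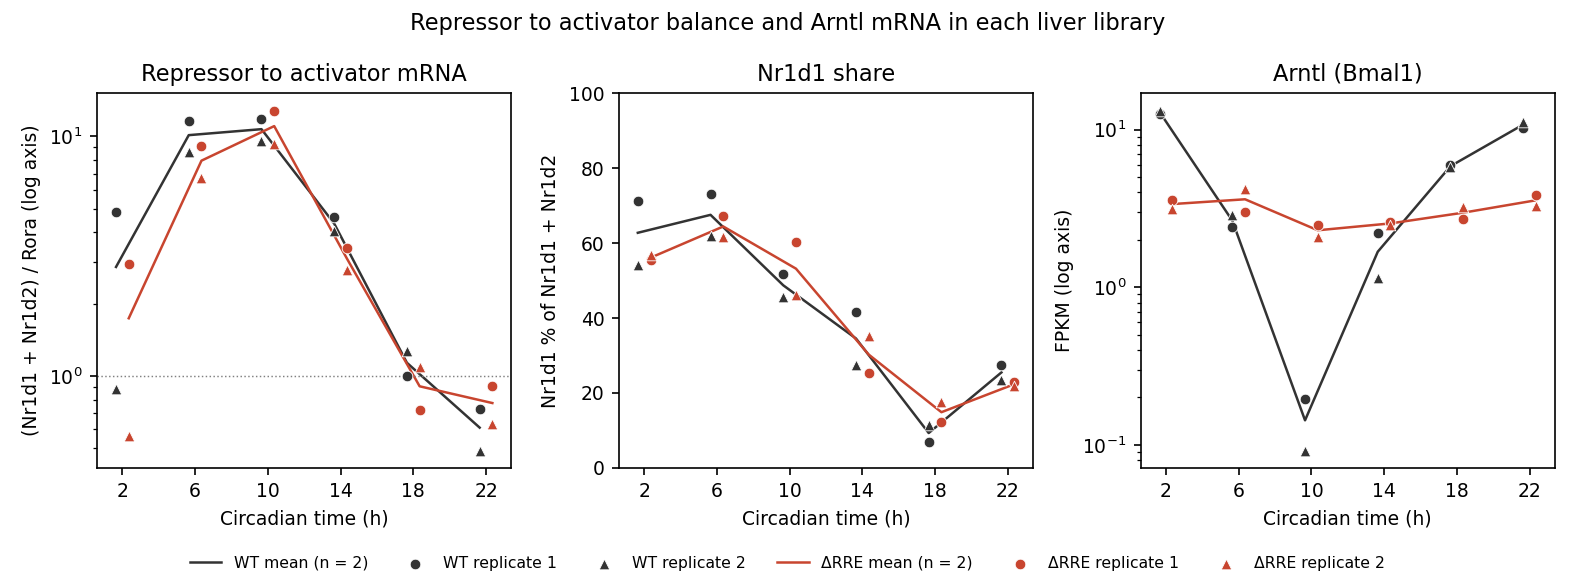
Ratio of Nr1d1 plus Nr1d2 to Rora (log axis, dotted line at 1), share of Nr1d1 in the summed REV-ERB FPKM (%), and Arntl level in FPKM (log axis) against circadian time, 1 point per library and lines through the means of 2 libraries. The ratio falls from 10.7 and 11.03 at CT10 to below 1 at CT22 in both genotypes, the share of Nr1d1 falls from 67.6% to 9.27% in WT, and Arntl runs from 0.0919 to 13.2 FPKM in WT against 2.096 to 4.21 FPKM in ΔRRE livers.

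Arntl, the gene whose elements were removed, checks the labels. At CT10 Arntl was 0.195 and 0.0919 FPKM in the WT libraries and 2.30 ± 0.284 (SD, n = 2) in the ΔRRE libraries. At CT22, at the other end of the ratio's range, it was 10.3 and 11.2 FPKM in WT and 3.83 and 3.29 in ΔRRE livers. The genotypes did not overlap at either time, and the difference changed sign between them. Arntl had an amplitude of 2.57 ± 0.31 in WT (adjusted p 0.00102, limma) and 0.29 ± 0.09 in ΔRRE livers (adjusted p 0.156).

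The genotypes were then compared for the receptors themselves. The difference in rhythm had an adjusted p of 0.999 or more for Nr1d1, Nr1d2 and Rora in limma, and 0.00889% of all genes were called, which is 1 gene, Arntl (adjusted p 0.0463). With each library left out in turn, no gene was called in 19 of 24 cases. By the exact permutation test over the 23328 divisions of the libraries within time points, two-sided, p was 0.852 for Nr1d1, 0.726 for Nr1d2 and 0.853 for Rora. For Arntl it was 4.29e-05, the smallest value this test can give. The amplitude of Nr1d1 differed by -0.17 ± 0.37 and its peak by 0.15 ± 0.48 h (ΔRRE minus WT), and that of Nr1d2 by -0.12 ± 0.27 and -0.31 ± 0.68 h.

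Over the day, Nr1d1 was 0.958 times its WT level in ΔRRE livers, with a 95% interval of 0.646 to 1.42, and Nr1d2 0.978 times, with an interval of 0.744 to 1.29. Neither passed the test (adjusted p 0.977 and 0.981, limma; exact p 0.829 and 0.862 by permutation). Rora was 1.12 times its WT level, with an interval of 1.01 to 1.23. Its mean was higher in ΔRRE livers at 6 of 6 time points, as it was for 4.65% of all genes tested. Its unadjusted p was 0.0325 and its exact permutation p 0.0273, but the adjusted p was 0.524 (limma), and 0 genes (0%) were called for a difference in mean, with 1002 at an unadjusted p under 0.05.

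At single time points no receptor gene was called, with adjusted p of 0.972 or more in limma. The largest differences were -0.60 ± 0.72 on the log2 scale for Nr1d1 at CT2, 0.53 ± 0.50 for Nr1d2 at CT22 and 0.23 ± 0.19 for Rora at CT2. The Rora value was 0.023 without WT replicate 1 and 0.43 without WT replicate 2, and the Nr1d2 value 0.31 without WT replicate 2. Leaving out WT replicate 1 at CT2 turned the Nr1d1 value to 0.60, and leaving out ΔRRE replicate 2 turned it to 0.45. All genes called made up 0.00889% at CT2, 0% at CT6, 0.0178% at CT10, 0.0267% at CT14, 0.00889% at CT18 and 0% at CT22. Arntl was called at CT2 and CT10. The other genes called, named after their values were seen, were Lrfn3 at CT10, Gm21981, Golt1a and Tomm6 at CT14, and Zfp595 at CT18. With 369 and 524 genes at an unadjusted p under 0.05, CT6 and CT22 gave no call.

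The libraries of the genotypes did not overlap for Rora at CT6 and CT14, where ΔRRE values were higher, for Nr1d1 at CT14, where they were lower, and for Nr1d2 at CT18, where they were lower, and CT22, where they were higher. With 2 libraries a group this is common: 28% of all genes did not overlap at CT6, 28.4% at CT14, 31.2% at CT18 and 37.1% at CT22.

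**Figure D3:**
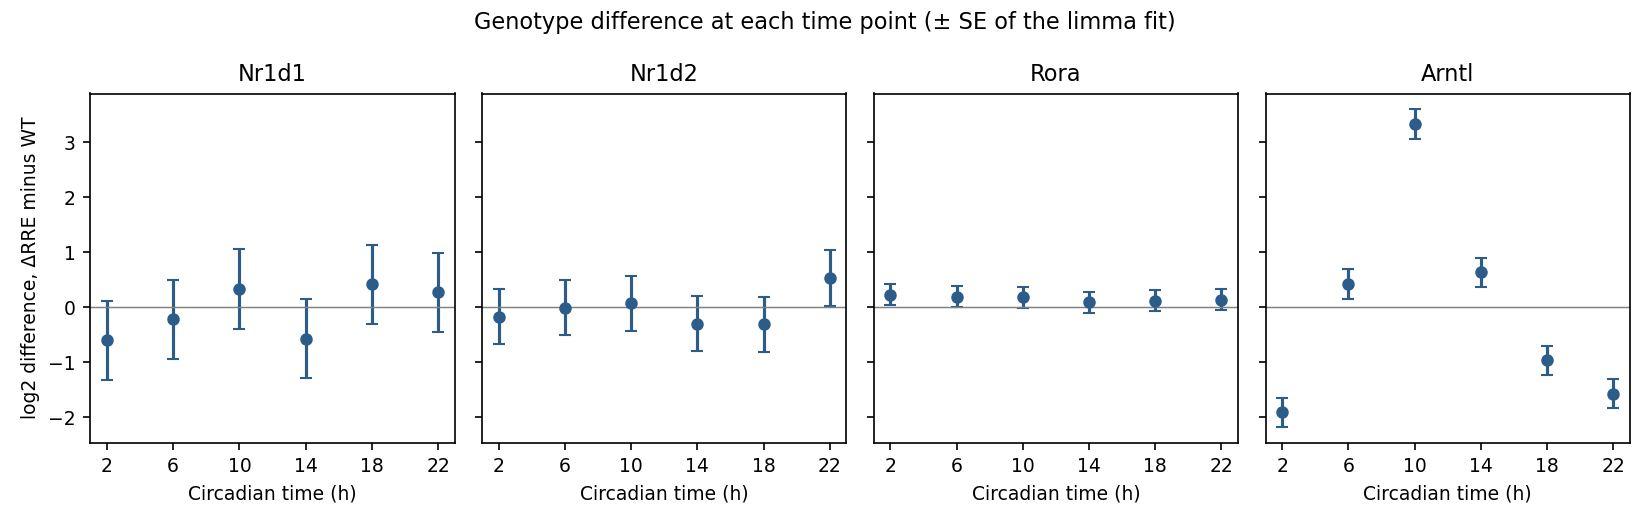
Difference between ΔRRE and WT livers on the log2(FPKM + 0.1) scale at each circadian time for Nr1d1, Nr1d2, Rora and Arntl, with bars of 1 SE from a limma fit of all 24 libraries. The receptor genes lie between -0.60 and 0.53, whereas Arntl runs from -1.91 at CT2 to 3.33 at CT10.

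Genes that the receptors are known to control through RREs were described as a list. In WT livers 5 of 5 clock genes of this list were rhythmic (Arntl, Clock, Npas2, Nfil3 and Cry1), beside 10.3% of all genes, with a median amplitude of 1.53 against 0.20. In ΔRRE livers 3 of 5 were rhythmic, beside 4.57%, namely Npas2, Nfil3 and Cry1. Npas2, a relative of Clock, had amplitudes of 2.76 ± 0.36 and 3.07 ± 0.27 with peaks at CT0.99 and CT1.13. Its lowest means, 0.020 FPKM in WT and 0.028 in ΔRRE livers at CT14, lay below the pseudocount of 0.1 FPKM, so its amplitudes depend on that setting. Nfil3, which encodes the D-box repressor E4BP4, had 1.32 ± 0.23 and 1.28 ± 0.11 with peaks at CT22.4 and CT23.2. Cry1, a repressor of CLOCK-BMAL1 with an RRE in an intron, had 1.53 ± 0.15 and 1.46 ± 0.18 with peaks at CT19.7 and CT20.3. Clock had 0.68 ± 0.13 (adjusted p 0.0166) and 0.56 ± 0.16 (adjusted p 0.124), and its rhythm difference had an adjusted p of 1 in limma, so that the genotypes are not shown to differ for it. Apart from Arntl, none of the 5 genes was called for a genotype difference. At CT6 Npas2, Cry1 and Nfil3 were higher in ΔRRE livers at an unadjusted p (limma) under 0.05, beside 3.28% of all genes in either direction. The log2 differences were 1.60 ± 0.72, 1.19 ± 0.27 and 0.91 ± 0.35, against 0.42 ± 0.27 for Arntl and 0.012 ± 0.38 for Clock. This time point was picked after its values were seen.

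**Figure D4:**
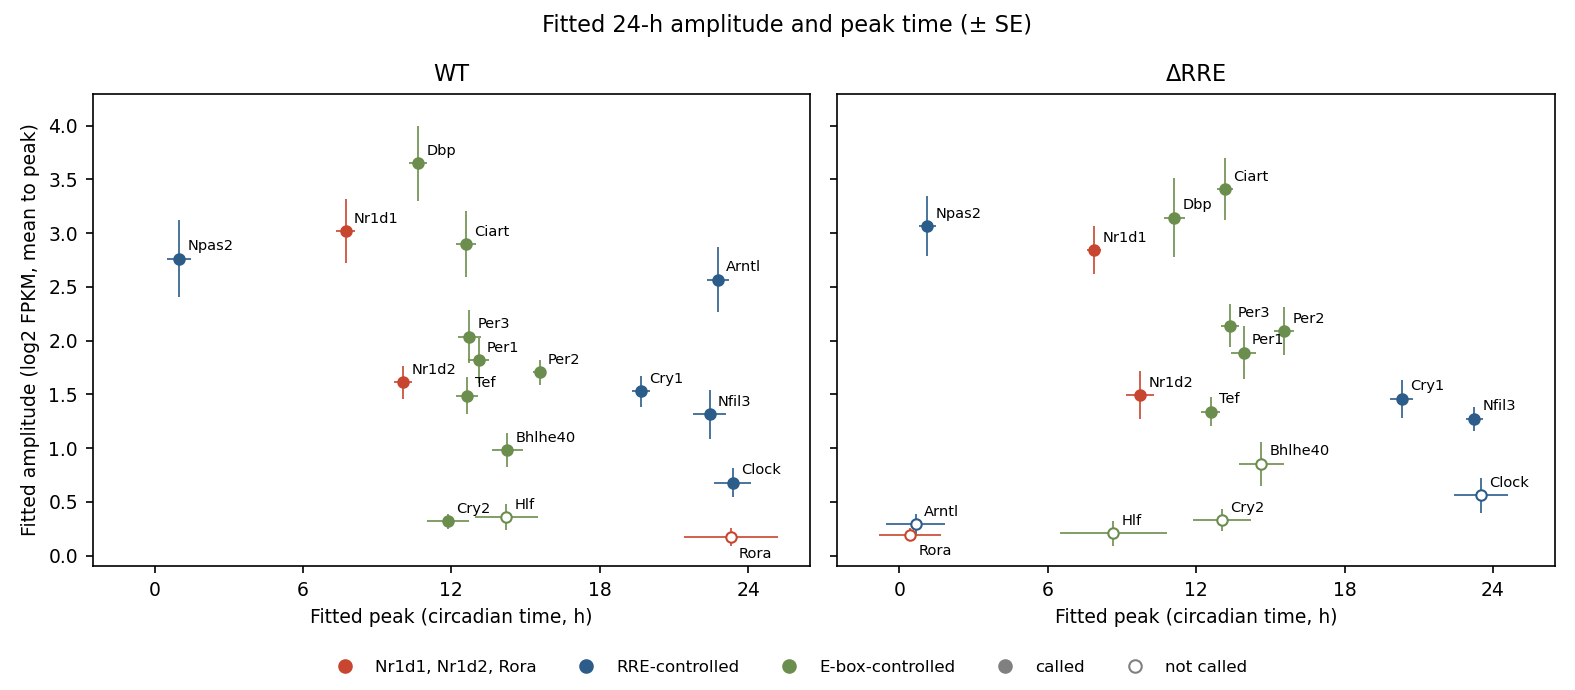
Fitted amplitude (log2, mean to peak) against fitted peak time for the receptor genes (red), RRE-controlled clock genes (blue) and E-box-controlled genes (green) in WT and ΔRRE livers, with bars of 1 SE; filled points were called rhythmic and open points were not. Nr1d1 sits at CT7.72 and CT7.88 and Nr1d2 at CT10.04 and CT9.73, ahead of most E-box genes, while Arntl drops from 2.57 in WT to 0.29 in ΔRRE livers.

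Metabolic genes known as REV-ERB targets behaved less uniformly. Of 9 such genes 7 were tested, and 3 were rhythmic in WT and 2 in ΔRRE livers, beside 10.3% and 4.57% of all genes. Elovl3, a fatty acid elongase, had amplitudes of 2.34 ± 0.30 and 2.53 ± 0.44 with peaks at CT23.6 and CT0.12. Insig2, which holds back SREBP processing, had 1.28 ± 0.13 and 0.84 ± 0.08 with peaks at CT0.65 and CT1.33. The smallest WT amplitudes were those of Apoc3, an apolipoprotein (0.18 ± 0.11), and Ppargc1a, a co-activator gene (0.20 ± 0.14), and neither was called. No gene of the list was called for a mean difference. The unadjusted p was under 0.05 for 4 of 7, beside 8.91% of all genes, and all 4 had higher values in ΔRRE livers: G6pc and Pck1, genes of gluconeogenesis (log2 differences of 0.71 ± 0.18 and 0.69 ± 0.21), Lpl, a lipase gene (0.70 ± 0.22), and Insig2 (0.43 ± 0.14). G6pc, Pck1 and Lpl were chosen for naming after their values were seen.

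The E-box genes share the activator of Nr1d1 and Nr1d2, and their list also holds Cry1. Of 11 genes 10 were tested, and 9 were rhythmic in WT and 7 in ΔRRE livers, beside 10.3% and 4.57% of all genes, with none called for a genotype difference. Dbp, a D-box activator, had amplitudes of 3.65 ± 0.35 and 3.15 ± 0.36 with peaks at CT10.7 and CT11.1. Ciart, a repressor of CLOCK-BMAL1, had 2.90 ± 0.31 and 3.41 ± 0.29 with peaks at CT12.6 and CT13.2. At the low end were Cry2 (0.32 ± 0.07 in WT, adjusted p 0.0302) and Hlf (0.36 ± 0.12, adjusted p 0.141). The Nr1d1 peak thus preceded those of Dbp and Ciart in both genotypes. The unadjusted p (limma) was under 0.05 for the mean difference in 2 of 10, beside 8.91% of all genes. For the rhythm difference it was so in 0 of 10, beside 2.84%. At CT6 Ciart, Dbp, Per3 and Per2 were lower in ΔRRE livers at this threshold (log2 -2.06, -1.34, -1.14 and -0.99). Cry1 and Hlf were higher (1.19 and 0.68), beside 3.28% of all genes in either direction. These CT6 genes were picked after their values were seen.

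Genes of the proteins that REV-ERBs and RORs work with gave no rhythm call in lists of 5 or 6 tested genes, beside 10.3% and 4.57% of all genes. In lists this short a count of 0 cannot be set apart from these shares. None of 5 genes of the NCoR-HDAC3 complex was rhythmic in either genotype. The largest WT amplitudes were those of Hdac3, the deacetylase of the complex (0.19 ± 0.06, adjusted p 0.101), and Tbl1xr1 (0.19 ± 0.15), and the smallest those of Tbl1x (0.13 ± 0.055) and Ncor1, a platform of the complex (0.14 ± 0.09). In ΔRRE livers the amplitudes of Tbl1xr1 and Ncor1 were 0.44 ± 0.12 (adjusted p 0.0916) and 0.25 ± 0.09 (adjusted p 0.215). None of 5 tested genes of REV-ERB protein turnover was rhythmic. There the largest WT amplitudes were those of the kinase gene Gsk3b (0.32 ± 0.22) and Fbxw7 (0.17 ± 0.15), and the smallest those of the ubiquitin ligase genes Siah2 (0.09 ± 0.12) and Huwe1 (0.14 ± 0.10). In ΔRRE livers Siah2 had 0.30 ± 0.10 and Mycbp2, another ubiquitin ligase gene, 0.31 ± 0.10, and neither was called. None of 6 ROR co-activator genes was rhythmic, from Ncoa1 (0.06 ± 0.15) and Crebbp (0.07 ± 0.09) to Ppargc1b (0.49 ± 0.21).

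REV-ERBs bind heme as a ligand. Rhythmic genes made up 10.3% of all genes in WT, 4.57% in ΔRRE livers and 2.87% in both. Among 9 genes of heme supply, too few to set a count of 1 apart from these shares, 1 was rhythmic, in both genotypes. This was Alas1, the rate-limiting enzyme of heme synthesis, with amplitudes of 1.49 ± 0.20 and 1.67 ± 0.29 and peaks at CT13.4 and CT14.1, after those of both REV-ERB genes. Hmox1, which degrades heme, had 0.19 ± 0.21 in WT, and the smallest amplitudes were those of Ppox (0.05 ± 0.09) and Urod (0.07 ± 0.06). None of the genes of these 4 lists was called for a genotype difference in limma.

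The genes most like each receptor were ranked by Pearson's r of log2 levels over the 24 libraries, which share 6 time points. For Nr1d1 they were Dctn2 (r = 0.894), Il18 (0.867), Sult1c2 (0.863), Gsdmd (0.862) and Tns2 (0.862). Their WT amplitudes were 0.24 for Dctn2 up to 0.81 for Sult1c2, well below that of Nr1d1 itself. For Nr1d2 they were Dbp (0.890), Wipf3 (0.873), Slc38a3 (0.858), Minpp1 (0.831) and Nr1d1 (0.830). For Rora they were Gramd4 (0.826), Magi1 (0.797), Lipa (0.796), Itsn1 (0.784) and Nid2 (0.781), whose fitted peaks in WT lay between CT23.5 and CT1.57.

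Thra, the gene of a thyroid hormone receptor, lies tail to tail with Nr1d1. The genes overlap over 1075 bases of chromosome 11 (98767932 to 98769006), of which 263 are exonic in both, or 8.55% of the exonic bases of Nr1d1. The library kit kept strand, but whether the counting used it is not given in the sources used here, so fragments in the overlap may have gone to either gene. Thra was rhythmic with amplitudes of 0.61 ± 0.09 and 0.71 ± 0.09 and peaks at CT4.25 and CT4.10, ahead of Nr1d1. Its levels ran from 3.40 to 9.36 FPKM in WT livers, so at CT18 Thra was above Nr1d1 in every library.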

How the data were processed

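RNA-seq of 24 mouse livers (WT and ΔRRE, 6 circadian times, 2 libraries each) was used. Per the submitters' processing notes, the authors used Trimmomatic 0.39, HISAT2 2.1.0 and StringTie 1.3.5 with the mm10 build. The deposited values are FPKM per gene. They hold no read counts, so depth and counting intervals are unknown. A table of the whole series held the same values and was not used.

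Levels were analysed as log2(FPKM + 0.1) for the 11244 genes whose mean level was 1 FPKM or more, in limma 3.58.1 (R 4.3.3) with a trended prior. The pseudocount understates changes of low genes. Rhythm was tested per genotype with a cosine and a sine of 24 h (moderated F-test). The genotype difference in rhythm, the mean difference with time as a factor, and the difference at each time were tested over all 24 libraries. Adjusted p-values are Benjamini-Hochberg over all genes tested, called under 0.05. Exact two-sided permutation tests were run for single genes. ± is SE for fitted values and SD for group means. The scripts were tested on simulated data.

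Genes named were the 3 receptor genes, Rorb, Thra, Arntl, all genes of the RRE clock list, the 2 largest and 2 smallest WT amplitudes of each other list, any of their genes called between genotypes, and the 5 genes nearest to each receptor. The members and lists were chosen with earlier results of these data known. Positions come from GENCODE M21, and sequences from RefSeq (GRCm38.p6). In the NCoR-HDAC3 list 1 gene is not reported here.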

Additional observations from a re-analysis of the deposited data

Results flagged for a closer look

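The rhythm of Arntl differed between the genotypes by the test of the difference itself, with an adjusted p of 0.0463 (limma, all 24 libraries, Benjamini-Hochberg over 11244 genes) and an exact permutation p of 4.29e-05. The amplitude was 2.57 ± 0.31 in WT and 0.29 ± 0.09 in ΔRRE livers. Nr1d1, Nr1d2 and Rora did not pass this test. Groups of 2 libraries are too small for a test of single outlying libraries.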

How the results depend on the processing

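Nr1d1 and Nr1d2 kept their rhythm calls in both genotypes, and Rora stayed without one, under every alternative run, apart from Nr1d2 in ΔRRE livers without the filter on low values (amplitude 1.49, adjusted p 0.0582 in limma). No receptor gene was called between genotypes under any alternative run, and its direction changed only where a library was left out. The labels do not say whether replicates of the same number belong together. Over all genes, the replicate differences of WT and ΔRRE livers at the same time correlated at -0.119 (CT6) to 0.206 (CT2), with 0.198 at CT18. For Nr1d1 and for Nr1d2 alone these differences had the same sign in both genotypes at 5 of 6 times, and for Rora at 3 of 6. A replicate block left 0 genes with a rhythm difference and moved no other count of calls by more than 1.5 times. The cause of the changes below was not tested. Fewer genes enter at a mean of 5 FPKM, more without the filter, and fewer samples where a library is left out.

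The number of rhythmic WT genes was 519 without the filter, 361 with time as a factor and 625 without both CT2 libraries, an alternative chosen after seeing the data. In ΔRRE livers it was 197 without the filter and 957 in 1 fit of all 24 libraries. Genes with a rhythm difference numbered 0 with a pseudocount of 0.01, without the filter and with an untrended prior, and 4 with time as a factor. They also numbered 0 at a mean of 5 FPKM, but Arntl, with a mean of 4.36 FPKM, was not tested there. Without the filter the genes called at single times numbered 20 at CT2, 15 at CT6, 10 at CT10, 7 at CT14, 8 at CT18 and 14 at CT22. At a mean of 5 FPKM, where Arntl was not among the genes tested, they numbered 0 at CT2, CT10 and CT18. With a pseudocount of 1 they numbered 1 at CT10, 5 at CT14 and 2 at CT22, with one of 0.01 they numbered 0 at CT2, and after rescaling by median of ratios 1 at CT10. With Nr1d1 alone as repressor the ratio spanned 0.109 to 6.92 in WT and 0.140 to 5.99 in ΔRRE livers, and with Nr1d2 alone its highest value was 5.46 and 5.04.

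With each library left out in turn, rhythmic genes numbered 740 (without WT CT10 replicate 2) to 1019 in WT and 298 (without ΔRRE CT14 replicate 1) to 554 in ΔRRE livers. WT genes also fell to 770 without CT2 replicate 1, and ΔRRE genes to 330, 328 and 306 without CT14 replicate 2 and CT18 replicates 1 and 2. Genes with a rhythm difference and with a mean difference numbered 0 to 1 each. Genes called at single times numbered 0 to 3 at CT2, 2 to 3 at CT6, 2 to 5 at CT10, 2 to 20 at CT14 (20 without ΔRRE replicate 2), 1 to 4 at CT18 and 0 to 1 at CT22. The mean difference ran from -0.17 to 0.11 for Nr1d1 and from -0.15 to 0.10 for Nr1d2. Differences at single times ran as follows for Nr1d1, from -1.80 to 0.60 at CT2, -0.74 to 0.29 at CT6, -0.21 to 0.87 at CT10, -0.066 to 0.90 at CT18 and -0.087 to 0.63 at CT22. For Nr1d2 they ran from -1.26 to 0.91 at CT2, -0.14 to 0.13 at CT6, -0.29 to 0.43 at CT10 and 0.31 to 0.76 at CT22, and for Rora from 0.023 to 0.43 at CT2, -0.11 to 0.47 at CT10 and -0.039 to 0.32 at CT22. The lowest ΔRRE ratio ran from 0.565 to 0.908.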
